A study of Mus musculus with 7 samples.

Results

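The 10 adipocyte genes Adipoq, Plin1, Plin4, Cidec, Lep, Retn, Cfd, Fabp4, Lpl and Pparg were examined in 7 subcutaneous (s/c) mouse pancreatic ductal adenocarcinoma (PDA) tumors, as a candidate measure of neighboring fat. The genes were taken as a given list and found by matching the Ensembl identifiers of the count table to mouse symbols. All 10 had a row among the 22629 rows of the table, and 9 passed the filter on low counts, Lep being the exception, so that 9 of 17489 tested genes were members.

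The tumors were formed in C57BL/6 mice with cells of the 1242 line, which was derived from a KPC mouse PDA tumor, and were harvested 2 weeks after inoculation. The 3 sgScramble tumors (numbers 1, 4 and 5) were formed with cells carrying a control guide RNA, and the 4 icOVA tumors (numbers 15, 16, 18 and 2) with sgScramble cells that carried a doxycycline-inducible vector for a cytoplasmic ovalbumin. Per the study's methods, the cells with the inducible vector were sorted and grown from single cells, more cells of the ovalbumin-inducible lines were inoculated, and the mice ate doxycycline food from the day of inoculation. Neither the labels nor the methods say whether the sgScramble tumors of this experiment came from a clone or a polyclonal line, carried an empty inducible vector or received doxycycline. Per the study's results, the inducible cells formed tumors with or without continuous doxycycline treatment of the mice. The labels do not say whether the sgScramble tumors were of the kind without it. The labels also give neither age nor sex of the mice, which per the study's methods were bought young and housed for some weeks before use. Effects of ovalbumin and of any difference in clone, vector, inoculum or doxycycline between the groups cannot be told apart. Each tumor was a separate sample with 30904855 to 37510591 counts. The labels do not tie tumors to mice, so that p-values measure the spread between these tumors. The OVA row held 85 to 151 counts in the sgScramble tumors and 3413 to 10750 in the icOVA tumors, which set the groups apart as labelled.

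White adipocytes store triglyceride in a single large lipid droplet and secrete hormones such as adiponectin and leptin. Their differentiation is driven by the nuclear receptor PPARγ together with C/EBP factors, which switch on genes of lipid uptake, synthesis and droplet coating. Tumors growing under the skin lie next to the fat of the dermis and flank, and a piece of tumor can carry some of it along. Several of the genes used as adipocyte markers are also known in capillary endothelial cells, macrophages and epithelial cells.

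Adipoq encodes adiponectin, a hormone that in mice is made almost exclusively by adipocytes, and lies at chr16:23146536-23158028 on GRCm38. Its level was 2.33, 0.972 and 1.34 CPM (counts scaled to the normalized library total) in sgScramble tumors 1, 4 and 5, and 1.73, 0.0573, 2.07 and 1.83 CPM in icOVA tumors 15, 16, 18 and 2. The groups overlapped, and icOVA tumor 16 stood far below the other tumors with 2 counts, against 32 to 81 counts elsewhere. The 95% Poisson interval of that tumor was 0.00694 to 0.207 CPM and did not reach the lowest interval of the others, 0.665 to 1.37 CPM in sgScramble tumor 4. Such intervals cover counting error only. The group means were 1.55 ± 0.703 CPM (SD, n = 3) and 1.42 ± 0.921 CPM (SD, n = 4). Between the groups, the log2 fold change (icOVA against sgScramble) was -0.13 with a standard error of 0.79 (edgeR adjusted p = 0.936), and its 95% interval of -1.97 to 1.72 left room for a change of either sign. In bulk RNA, fewer adipocytes and less RNA per adipocyte cannot be told apart.

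The other secreted products shared some of this order of tumors. Cfd encodes adipsin, the complement factor D protease, which adipocytes secrete. Cfd was listed with Fabp4, Lpl and Pparg among the members that other cell types are also known to express. It was measured at 6.51, 1.70 and 2.56 CPM in sgScramble tumors 1, 4 and 5 and at 5.02, 0.258, 5.21 and 5.66 CPM in icOVA tumors 15, 16, 18 and 2. As for Adipoq, sgScramble tumor 1 was highest, icOVA tumor 16 lowest and the groups overlapped, with a log2 fold change of 0.17 (standard error 0.84, edgeR adjusted p = 0.917). Retn, which encodes resistin, was counted 10, 4 and 9 times in sgScramble tumors 1, 4 and 5, compared with 13, 0, 14 and 5 times in icOVA tumors 15, 16, 18 and 2. Lep, the gene of the satiety hormone leptin, had 11, 3 and 6 counts and 4, 0, 2 and 3 counts in the same order. Both genes were at 0 in icOVA tumor 16, where a count of 0 allows up to 0.0860 CPM (3 counts, a one-sided bound), or 0.106 CPM by the two-sided Poisson interval used for the other values. For both genes the groups overlapped. Retn had a log2 fold change of -0.02 (standard error 0.84, edgeR adjusted p = 0.988). Lep, for which 2 of 4 icOVA tumors (16 and 18) lay below all sgScramble tumors, missed the filter of the main test. Fitted without a filter on low counts, it had a log2 fold change of -1.58 (standard error 0.76) and was not called (edgeR adjusted p = 0.256).

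Of the lipid droplet proteins, Plin1, or perilipin 1, coats the adipocyte droplet and gates the access of lipases to it. Its counts were low, with 28, 5 and 15 reads in sgScramble tumors 1, 4 and 5, against 14, 3, 18 and 21 reads in icOVA tumors 15, 16, 18 and 2, or 0.0860 to 0.806 CPM. The groups overlapped and icOVA tumor 16 was again lowest, next to sgScramble tumor 4. Its log2 fold change was -0.24 with a standard error of 0.68 (edgeR adjusted p = 0.847).

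Plin4, a perilipin found on nascent droplets in adipocytes and on droplets in other cells, showed another pattern. It was measured at 13.1, 4.77 and 8.41 CPM in the sgScramble tumors and at 2.05, 4.30, 2.21 and 3.73 CPM in icOVA tumors 15, 16, 18 and 2. All 4 icOVA tumors lay below all 3 sgScramble tumors, although icOVA tumor 16 at 4.30 CPM and sgScramble tumor 4 at 4.77 CPM had overlapping Poisson intervals (3.64 to 5.04 and 4.05 to 5.58 CPM). The log2 fold change was -1.51 (standard error 0.39, 95% interval -2.41 to -0.61) and missed the threshold of 0.05 (edgeR adjusted p = 0.0614). It passed without sgScramble tumor 4 (adjusted p = 0.0326) and without icOVA tumor 16 (0.0458), and reached 0.233 at most when another single tumor was left out. DESeq2 gave an adjusted p of 0.00367. The gene overlaps Hdgfl2 on the opposite strand (12205 counts in all), and since the sources used here do not state whether the counting was by strand, reads of the pair may be mixed.

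Cidec, which encodes a protein that fuses lipid droplets into larger ones, was also lower in every icOVA tumor, by a smaller margin. The levels were 15.5, 13.6 and 16.6 CPM in sgScramble tumors 1, 4 and 5 and 12.9, 12.7, 6.33 and 12.4 CPM in icOVA tumors 15, 16, 18 and 2. The lowest level was that of icOVA tumor 18, and the Poisson intervals of the other 3 icOVA tumors overlapped that of sgScramble tumor 4 (12.4 to 14.9 CPM). On the log2 scale the fold change was -0.46 (standard error 0.24, edgeR adjusted p = 0.259), and -0.27 without icOVA tumor 18. Unlike Adipoq, Cidec did not drop in icOVA tumor 16, which held 442 counts of Cidec and 2 of Adipoq, while sgScramble tumor 4 held 447 and 32.

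Fabp4 encodes a fatty acid carrier that is abundant in adipocytes and is also known in capillary endothelial cells and macrophages. It was measured at 14.9, 21.4 and 19.2 CPM in sgScramble tumors 1, 4 and 5 and at 48.7, 15.8, 68.1 and 34.9 CPM in icOVA tumors 15, 16, 18 and 2. In the icOVA group, tumors 15, 18 and 2 lay above all sgScramble tumors, and icOVA tumor 16 lay among them. A log2 fold change of 1.18 (standard error 0.43, 95% interval 0.17 to 2.19) did not pass (edgeR adjusted p = 0.133), while without icOVA tumor 16 it was 1.45 and passed (adjusted p = 0.0252). With any other single tumor left out it did not pass, and DESeq2 gave an adjusted p of 0.0268.

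Lpl encodes lipoprotein lipase, the enzyme that frees fatty acids from circulating triglyceride at the capillary wall. Its levels were 25.1, 17.1 and 16.1 CPM in the sgScramble tumors and 68.0, 15.4, 65.9 and 25.2 CPM in icOVA tumors 15, 16, 18 and 2. In the icOVA group, tumors 15 and 18 were high, and the groups overlapped. Lpl had a log2 fold change of 1.17 (standard error 0.52, edgeR adjusted p = 0.194).

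Pparg, the gene of the receptor PPARγ, was measured at 63.0, 35.6 and 56.6 CPM in the sgScramble tumors and at 57.5, 68.1, 23.6 and 63.2 CPM in icOVA tumors 15, 16, 18 and 2. The groups overlapped, and icOVA tumor 16, the lowest for Adipoq, was the highest for Pparg. Its log2 fold change was 0.04 (standard error 0.35, edgeR adjusted p = 0.957).

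**Figure D1:**
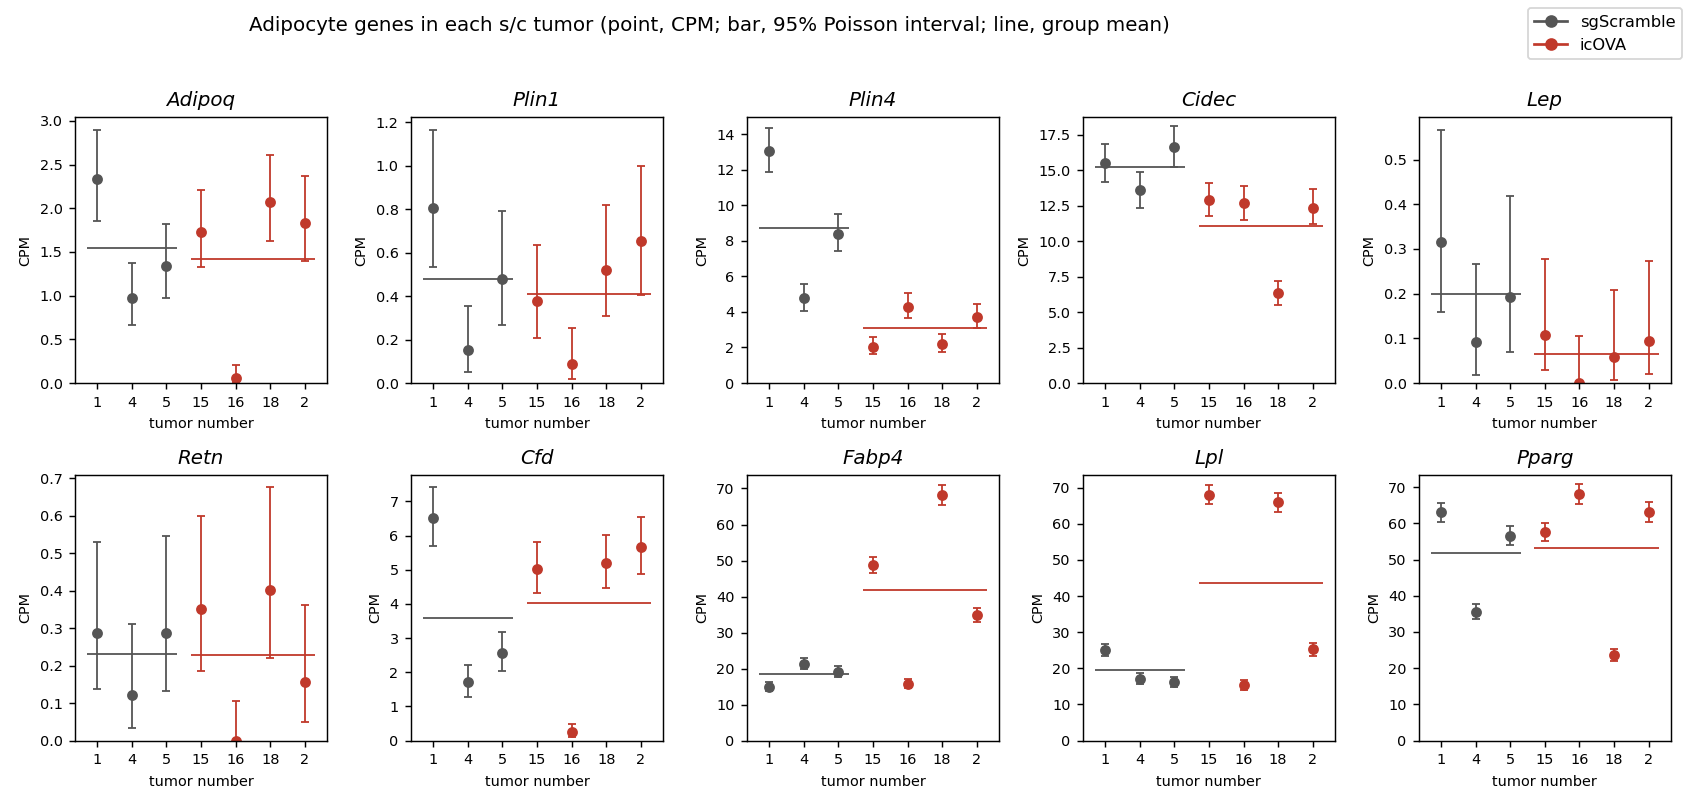
CPM of the 10 adipocyte genes (y axes, each starting at 0) in the 3 sgScramble and 4 icOVA tumors (x axes, tumor number); points are tumors, bars are 95% Poisson intervals and lines are group means. Adipoq, Cfd, Retn, Plin1 and Lep are at or near 0 in icOVA tumor 16, whereas Cidec (12.7 CPM) and Pparg (68.1 CPM) are not.

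In all, edgeR called 0 of the 9 tested members different between icOVA and sgScramble tumors, where 5.90% of all tested genes were called (1032 of 17489), 3.36% higher and 2.54% lower in icOVA tumors. At an unadjusted p under 0.05 there were 2 of 9 members, Plin4 and Fabp4, beside 27.2% of all tested genes. DESeq2 called 1 member higher, Fabp4, and 1 lower, Plin4, where it called 8.91% of all tested genes higher and 7.31% lower. By limma-voom 0 members were called, beside 5.38% of all tested genes. Groups without overlap were seen for 0 of 9 members on the higher side and 2 of 9, Plin4 and Cidec, on the lower side, beside 11.3% and 13.3% of all tested genes. The median log2 fold change was -0.02 over the members, 4 being above 0 and 5 below, and -0.00480 over all tested genes. With limma-voom the member median was -0.30, and with single tumors left out it ran from -0.32 to 0.30. The number of called genes itself depended on single tumors. Leaving out sgScramble tumor 1, sgScramble tumor 5 or icOVA tumor 15 brought it to 0 in both directions, where edgeR gave 2936 to 3415 genes with an unadjusted p under 0.05. There were 6 calls on the higher and 2 on the lower side without icOVA tumor 2. They were 1014 higher and 716 lower without icOVA tumor 16, and 862 and 681 without sgScramble tumor 4.

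Levels of different genes were compared per kilobase of annotated exon. Pparg had the highest mean over the 7 tumors, 17.8 CPM per kilobase with an SD of 5.59, followed by Fabp4 (7.10, SD 4.48), Cidec (6.92, SD 1.77), Cfd (4.17, SD 2.53) and Lpl (3.17, SD 2.23) on the same scale. This order of means did not hold in each tumor. Pparg was highest in 6 of 7 tumors, but in icOVA tumor 18 it was at 7.98 CPM per kilobase, below Fabp4 at 15.2. Cidec was at 8.34, 7.32 and 8.96 CPM per kilobase in sgScramble tumors 1, 4 and 5, above Fabp4 at 3.33, 4.76 and 4.27. In icOVA tumors 15, 18 and 2 Fabp4, at 10.9, 15.2 and 7.76 CPM per kilobase, was above Cidec at 6.94, 3.41 and 6.67, while in icOVA tumor 16 it was below (3.52 against 6.82). Cfd was at 7.06, 1.85 and 2.77 CPM per kilobase in sgScramble tumors 1, 4 and 5 and at 5.45, 0.280, 5.65 and 6.14 in icOVA tumors 15, 16, 18 and 2, and thus above Fabp4 in sgScramble tumor 1, above Cidec in icOVA tumor 18 and nearer to Cidec than the means were in sgScramble tumor 1 and icOVA tumors 15 and 2. Lpl, at 2.40, 1.64 and 1.53 CPM per kilobase and at 6.49, 1.47, 6.29 and 2.41 in the same order, was above Cfd in icOVA tumors 15, 16 and 18 and above Cidec in icOVA tumor 18. Adipoq and Plin4 followed with means of 1.07 (SD 0.558) and 0.953 (SD 0.683) CPM per kilobase, less than their SD apart, and Retn (0.145), Plin1 (0.0944) and Lep (0.0366) came last. The lengths are unions of all annotated exons, which for Fabp4 amount to 4489 bases and span its whole gene, so that its level per kilobase is a low estimate. The place of Fabp4 below Pparg depends on this length. Among the 10 genes the union of Lpl is the longest, at 10478 bases in 19 exons. In sum the 10 genes reached 142, 95.5 and 122 CPM in the sgScramble tumors and 197, 117, 174 and 148 CPM in icOVA tumors 15, 16, 18 and 2, most of it from Pparg, Fabp4 and Lpl. The sum of Adipoq, Plin1, Retn and Cfd, put together after their values were seen, was 9.93, 2.95 and 4.67 CPM in the sgScramble tumors and 7.48, 0.401, 8.20 and 8.30 CPM in the icOVA tumors in that order.

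The members therefore did not vary across tumors as 1 group. Over the 7 tumors, 95 relations were computed on log2 CPM, 45 between pairs of members and 50 between a member and the mean of 1 of 5 marker lists, with exact two-sided permutation p-values adjusted over all 95. Pearson's r passed an adjusted p of 0.05 in 6 relations and Spearman's rho in 0, the smallest p that 7 tumors allow being 0.000397. Adipoq and Cfd had r = 0.98 (exact permutation p = 0.000595, adjusted 0.0377) and rho = 0.96 (exact permutation p = 0.00278, adjusted 0.0880). The relation held without the 2 tumors farthest from the median Adipoq level (r = 0.92; for relations with a list, the farthest are taken from the list's values, and for Fabp4 with Lpl from Fabp4) and for deviations from the group means (r = 0.99). Adipoq and Plin1 had r = 0.86 (exact permutation p = 0.00298, adjusted 0.0471) and rho = 0.93 (exact permutation p = 0.00675, adjusted 0.160), with r = 0.62 without the 2 farthest tumors. Plin1 and Cfd had r = 0.91 (exact permutation p = 0.00496, adjusted 0.0660) and rho = 0.96 (exact permutation p = 0.00278, adjusted 0.0880). Without the 2 tumors farthest in Plin1 their r fell to 0.50. Adipoq and Retn had r = 0.93 (exact permutation p = 0.0137, adjusted 0.0932) and rho = 0.75 (exact permutation p = 0.0663, adjusted 0.350), which rested on the farthest tumors, since r fell to 0.10 without them.

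Cidec had r = -0.12 with Adipoq (exact permutation p = 0.679, adjusted 0.821; rho = -0.14, exact permutation p = 0.783, adjusted 1) and Pparg r = -0.31 (exact permutation p = 0.458, adjusted 0.714; rho = -0.18, exact permutation p = 0.713, adjusted 0.996). Plin4 had r = 0.03 (exact permutation p = 0.930, adjusted 0.972) and rho = 0 (exact permutation p = 1). These values do not show that the genes are unrelated at 7 tumors. Lpl had r = 0.52 (exact permutation p = 0.235, adjusted 0.543) and rho = 0.64 (exact permutation p = 0.139, adjusted 0.471) with Adipoq, and Lep r = 0.76 (exact permutation p = 0.0563, adjusted 0.223) and rho = 0.50 (exact permutation p = 0.267, adjusted 0.633), with r = 0.07 for Lep without the 2 farthest tumors. Fabp4 had r = 0.46 (exact permutation p = 0.297, adjusted 0.626) and rho = 0.18 (exact permutation p = 0.713, adjusted 0.996) with Adipoq. For deviations from the group means, r with Adipoq was 0.86, 0.92, 0.85, 0.81 and 0.79 for Plin1, Retn, Lep, Fabp4 and Lpl. It was -0.33, -0.32 and -0.27 for Cidec, Pparg and Plin4. Over all 7 tumors, high and low levels thus fell in much the same tumors for Adipoq, Cfd and Plin1, and not for the list as a whole. Lowest in icOVA tumor 16 were Adipoq, Plin1, Lep, Retn, Cfd and Lpl. In that tumor Adipoq, Plin1, Lep, Retn and Cfd had 2, 3, 0, 0 and 9 counts, and Plin4, Cidec, Fabp4, Lpl and Pparg had 150, 442, 551, 536 and 2378. The 10 genes are therefore described singly and not as 1 measure of neighboring fat, and how much of the RNA of any of them came from neighboring fat was not tested.

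**Figure D2:**
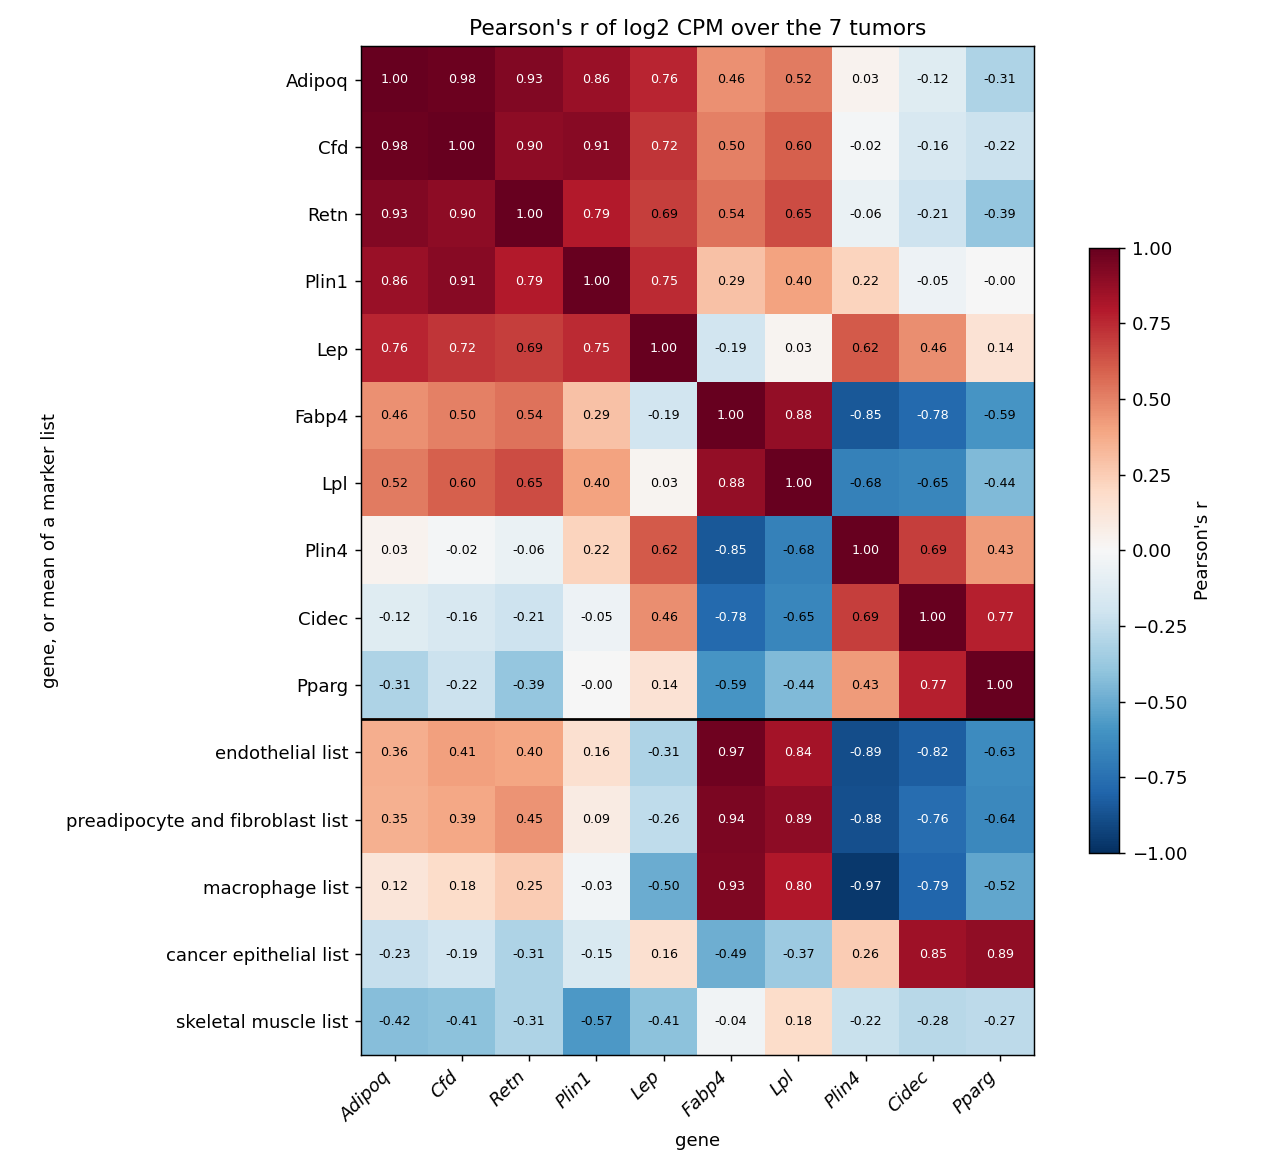
Pearson's r of log2 CPM over the 7 tumors between the 10 adipocyte genes (columns and upper rows) and between each gene and the mean of 5 marker lists (lower rows), colored from -1 to 1. Adipoq has r = 0.98 with Cfd and r = -0.31 with Pparg, and Fabp4 has r = 0.97 with the endothelial list.

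Fabp4 moved with the markers of vessels and stroma, and also with those of macrophages, given further below. The 7 endothelial genes, of which Pecam1 was the most abundant, summed to 212, 299 and 195 CPM in the sgScramble tumors and to 463, 238, 589 and 379 CPM in icOVA tumors 15, 16, 18 and 2. None of the 7 was called by edgeR, beside 3.36% of all tested genes higher and 2.54% lower, which also hold for the lists below. DESeq2 called 4 of 7 higher, among them Pecam1 (adjusted p = 0.0150), beside 8.91% of all tested genes. The median log2 fold change was 0.85, and all 7 genes had a value above 0, beside a median of -0.00480 and 8641 of 17489 above 0 for all tested genes. Fabp4 and the endothelial list had r = 0.97 (exact permutation p = 0.000794, adjusted 0.0377) and rho = 0.89 (exact permutation p = 0.0123, adjusted 0.167), with r = 0.90 without the 2 farthest tumors and r = 0.95 for deviations from the group means. The 12 preadipocyte and fibroblast genes, led by Col1a1, summed to 5446, 11487 and 5078 CPM and to 17726, 5159, 24241 and 7075 CPM in the same tumors, with 0 of 12 called by edgeR, beside 3.36% higher and 2.54% lower of all tested genes, and a median log2 fold change of 1.09, beside -0.00480. DESeq2 called 2 of 12 higher. Their r with Fabp4 was 0.94 (exact permutation p = 0.00298, adjusted 0.0471; rho = 0.86, exact permutation p = 0.0238, adjusted 0.226), and 0.73 without the 2 farthest tumors.

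Lpl had r = 0.88 with Fabp4 (exact permutation p = 0.0143, adjusted 0.0932; rho = 0.75, exact permutation p = 0.0663, adjusted 0.350), which fell to 0.38 without the 2 farthest tumors. The same tumors, 15 and 18, were highest for both genes and for both lists. Lpl had r = 0.84 with the endothelial list (exact permutation p = 0.0194, adjusted 0.0972). With the preadipocyte and fibroblast list it had r = 0.89 (exact permutation p = 0.0173, adjusted 0.0932). Without the 2 farthest tumors these fell to 0.37 and 0.20. The part of vessel and stroma cells in the levels of Fabp4 and Lpl was not tested.

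Plin4 ran opposite to the macrophage, endothelial and fibroblast lists. The 7 macrophage genes, led by Lyz2, summed to 1476, 2065 and 1884 CPM in the sgScramble tumors and to 3393, 2922, 3847 and 2865 CPM in icOVA tumors 15, 16, 18 and 2, without overlap. Lyz2 and Cd68 were called higher, 2 of 7, and 0 lower, beside 3.36% and 2.54% of all tested genes, and the median log2 fold change was 0.65. DESeq2 called 4 of 7 higher, beside 8.91%. With Plin4 the list had r = -0.97 (exact permutation p = 0.00139, adjusted 0.0424) and rho = -0.96 (exact permutation p = 0.00278, adjusted 0.0880), with r = -0.98 without the 2 farthest tumors and -0.91 for deviations from the group means. Plin4 had r = -0.89 with the endothelial list (exact permutation p = 0.00833, adjusted 0.0880; rho = -0.89, exact permutation p = 0.0123, adjusted 0.167) and r = -0.88 with the preadipocyte and fibroblast list (exact permutation p = 0.0151, adjusted 0.0932; rho = -0.82, exact permutation p = 0.0341, adjusted 0.270). For deviations from the group means these were -0.78 and -0.86, so that the relation was not particular to macrophages. The macrophage list had r = 0.93 with Fabp4 (exact permutation p = 0.00179, adjusted 0.0424; rho = 0.89, exact permutation p = 0.0123, adjusted 0.167), and 0.72 without the 2 farthest tumors. With Lpl the macrophage list had r = 0.80 (exact permutation p = 0.0397, adjusted 0.171) and rho = 0.64 (exact permutation p = 0.139, adjusted 0.471). Without the 2 farthest tumors r with Lpl was -0.13. Ptprc, the pan-leukocyte marker CD45, was 132, 175 and 116 CPM in the sgScramble tumors and 363, 258, 312 and 260 CPM in icOVA tumors 15, 16, 18 and 2, with a log2 fold change of 1.08 (standard error 0.18, edgeR adjusted p = 0.0271). The calls of Lyz2, Cd68 and Ptprc were lost when sgScramble tumor 1 or 5 or icOVA tumor 15 or 2 was left out. What part the shares of these cells had in the levels of Plin4, Fabp4 and Lpl was not tested.

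Pparg and Cidec were set beside the cancer epithelial list, 6 genes led by Krt8. These summed to 4565, 4360 and 4412 CPM in the sgScramble tumors and to 4637, 4789, 2877 and 4367 CPM in icOVA tumors 15, 16, 18 and 2, so that icOVA tumor 18 was low and the other 6 were close together. None of the 6 was called (median log2 fold change 0.05). Pparg and the list had r = 0.89 (exact permutation p = 0.0161, adjusted 0.0932) and rho = 0.71 (exact permutation p = 0.0881, adjusted 0.364), with r = 0.91 without the 2 farthest tumors. For Cidec r was 0.85 (exact permutation p = 0.109, adjusted 0.323) but rho was 0.04 (exact permutation p = 0.963, adjusted 1), and r was -0.22 without the 2 farthest tumors, so that the pooled relation rested on those tumors. Deviations from the group means gave r = 0.98, with icOVA tumor 18, low for both, still among them. Cidec ran opposite to 3 other lists, with no adjusted p under 0.05. It had r = -0.82 with the endothelial list (exact permutation p = 0.00556, adjusted 0.0660; rho = -0.82, exact permutation p = 0.0341, adjusted 0.270), r = -0.79 with the macrophage list (exact permutation p = 0.0143, adjusted 0.0932; rho = -0.86, exact permutation p = 0.0238, adjusted 0.226) and r = -0.76 with the preadipocyte and fibroblast list (exact permutation p = 0.0131, adjusted 0.0932; rho = -0.71, exact permutation p = 0.0881, adjusted 0.364). Without the 2 farthest tumors these were -0.76, -0.84 and -0.69. Whether the cancer cells themselves make Pparg and Cidec was not tested.

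**Figure D3:**
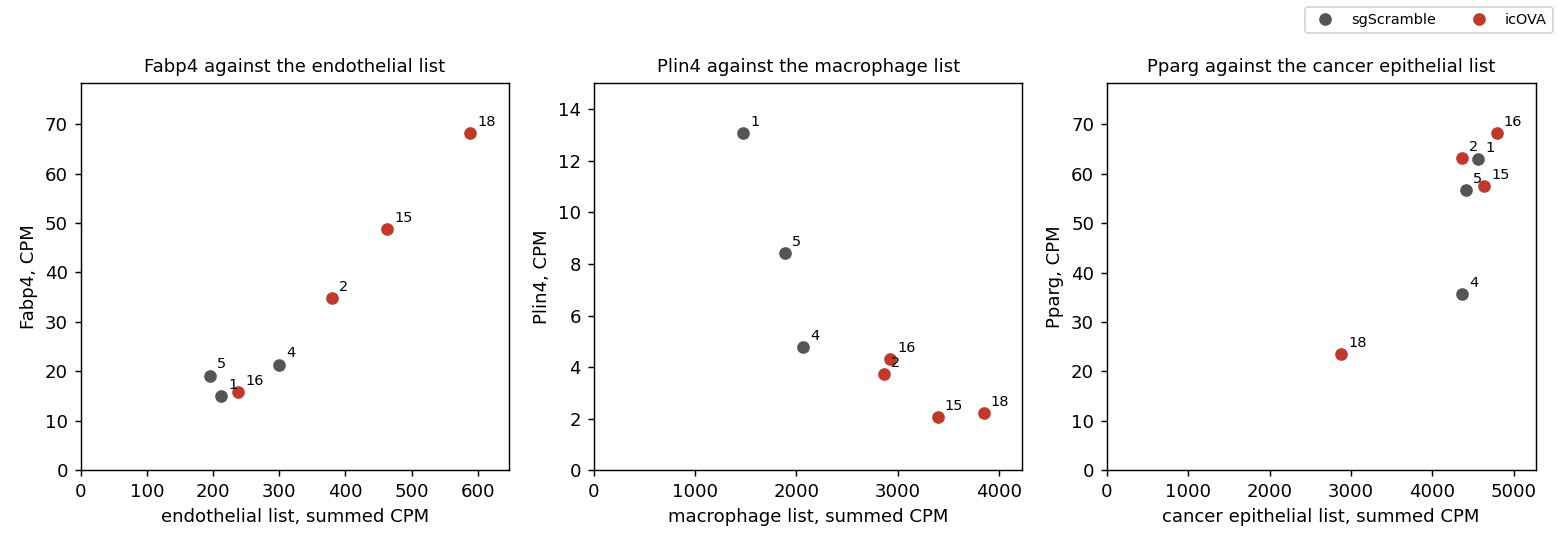
CPM of Fabp4, Plin4 and Pparg (y axes) against the summed CPM of the endothelial, macrophage and cancer epithelial lists (x axes) in the 7 tumors, numbered. Fabp4 is highest in icOVA tumor 18 (68.1 CPM, endothelial sum 589 CPM), and Plin4 is highest in sgScramble tumor 1 (13.1 CPM), which has the lowest macrophage sum, 1476 CPM.

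Markers of other tissues that a s/c tumor could carry were at the following levels. The 8 skeletal muscle genes, led by Acta1, summed to 74.4, 102 and 3.26 CPM in the sgScramble tumors and to 79.2, 188, 85.1 and 2.64 CPM in icOVA tumors 15, 16, 18 and 2, with 0 of 8 called and Myh2 at 0 in at least 1 tumor. Tumor 16 of the icOVA group, with nearly no Adipoq, thus had the most muscle RNA. The list and Adipoq had r = -0.42 (exact permutation p = 0.376, adjusted 0.663) and rho = -0.54 (exact permutation p = 0.236, adjusted 0.589). Without the 2 farthest tumors, sgScramble tumor 5 and icOVA tumor 2, which had the least muscle RNA, r was -0.97, a value without a p-value. The list's r with Cfd, Retn and Plin1 likewise went from -0.41, -0.31 and -0.57 to -0.996, -0.96 and -0.94. For Cidec and Pparg it was 0.13 and 0.26 without the 2 farthest tumors. The tumors left included icOVA tumor 16, highest for muscle and lowest for Adipoq, Cfd, Retn and Plin1. These values may rest on that tumor, and r without it was not computed. Of 6 skin keratinocyte genes, Krt5 and Krt1 had no row, and the other 4 summed to 2.15 to 3.14 CPM in all 7 tumors. Of 6 brown adipocyte genes, Ucp1, the uncoupling protein that defines brown fat, and Elovl3 had no row, and the other 4 summed to 2.88 to 6.67 CPM. The 5 lymph node stroma and follicle genes, led by Ccl21a, were at 0.806, 12.0 and 1.60 CPM in the sgScramble tumors and at 3.27, 4.10, 22.4 and 1.96 CPM in the icOVA tumors in that order, with neither of the 2 tested genes called.

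The wider adipocyte programme was read from 6 lists with 74 genes, all with a row, of which 66 were tested. Of these 66, 2 were called higher and 3 lower in icOVA tumors, beside 3.36% and 2.54% of all tested genes, and the median log2 fold change was 0.01, beside -0.00480. DESeq2 called 8 of 66 higher and 6 lower, beside 8.91% and 7.31% of all tested genes. The few calls are given by gene and say nothing particular of the lists. Of 13 tested adipogenic transcription factors, 0 rose and 2 fell, Ppargc1a and Cebpd, beside 3.36% and 2.54% of all tested genes. Ebf2 of the same list lay higher in all icOVA tumors and did not pass (log2 fold change 1.80, standard error 0.50, edgeR adjusted p = 0.0723). DESeq2 called Ebf2 higher. Ppargc1a, a coactivator of mitochondrial genes, was 13.8, 5.10 and 10.6 CPM in the sgScramble tumors and 1.92, 2.52, 1.61 and 4.10 CPM in icOVA tumors 15, 16, 18 and 2. These levels did not overlap, and the log2 fold change was -1.96 (standard error 0.41, edgeR adjusted p = 0.0390). Cebpd, an early factor of adipocyte differentiation that inflammatory signals also induce, had a log2 fold change of -0.81 (standard error 0.17, edgeR adjusted p = 0.0411), from 12.0 to 16.1 CPM down to 6.00 to 9.33 CPM. Srebf1, a regulator of lipid synthesis, was just over the threshold at -0.38 (standard error 0.09, edgeR adjusted p = 0.05003), and passed by DESeq2 (adjusted p = 0.00490), with total counts without TMM (0.0389), with upper quartile scaling (0.0418) and with at least 10 counts in every tumor (0.0475). It did not pass with limma-voom (0.0538), without a filter on low counts (0.0628) or with the robust fit (0.0514). With single tumors left out, its edgeR adjusted p ran from 0.0257 to 0.208. Cebpa, the partner of PPARγ in mature adipocytes, had a log2 fold change of 0.16 (standard error 0.16, edgeR adjusted p = 0.545), and of 0.013 without icOVA tumor 18.

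Among 11 tested lipid droplet and lipolysis genes, 1 fell and 0 rose, beside 2.54% and 3.36% of all tested genes. Plin3, a perilipin of many tissues, was 74.7, 61.6 and 73.1 CPM in the sgScramble tumors and 47.9, 54.6, 48.3 and 53.3 CPM in icOVA tumors 15, 16, 18 and 2, a log2 fold change of -0.45 (standard error 0.09, edgeR adjusted p = 0.0351). G0s2, an inhibitor of the triglyceride lipase ATGL, lay higher in all icOVA tumors and did not pass (log2 fold change 1.12, standard error 0.35, edgeR adjusted p = 0.0949), though it did by DESeq2 (adjusted p = 0.0241). Plin2, the most abundant gene of the list, had a log2 fold change of 0.25 (standard error 0.11, edgeR adjusted p = 0.200). None of the 16 tested genes of fatty acid and triglyceride synthesis was called, with a median of -0.09. Scd2, a desaturase and the most abundant of them at a mean of 1188 CPM, had a log2 fold change of -0.33 (standard error 0.34, edgeR adjusted p = 0.550). It was at 464 CPM in icOVA tumor 18 and at 1145 to 1492 CPM elsewhere, and its log2 fold change was -0.083 without that tumor and -0.54 without icOVA tumor 16.

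Of 10 tested genes of fatty acid and glucose uptake, 2 rose and 0 fell, beside 3.36% and 2.54% of all tested genes. Angptl4, a secreted inhibitor of lipoprotein lipase that hypoxia and PPAR ligands induce, was 89.0, 100.4 and 67.7 CPM in the sgScramble tumors and 126, 155, 164 and 144 CPM in icOVA tumors 15, 16, 18 and 2. Acsl1, which couples fatty acids to coenzyme A, was 44.1, 53.8 and 38.5 CPM and 92.1, 105, 70.1 and 83.6 CPM in the same order. Neither gene overlapped between the groups, and the log2 fold changes were 0.78 (standard error 0.15, edgeR adjusted p = 0.0315) for Angptl4 and 0.95 (standard error 0.16, edgeR adjusted p = 0.0271) for Acsl1. Fabp5, a fatty acid carrier of epithelia and macrophages, had a log2 fold change of 0.77 and did not pass (standard error 0.18, edgeR adjusted p = 0.0517). Slc27a1, a fatty acid transport protein, was lower in all icOVA tumors, at 30.9 to 38.2 CPM against 40.7 to 58.2 CPM, and did not pass either (log2 fold change -0.57, standard error 0.14, edgeR adjusted p = 0.0517). The scavenger receptor Cd36 had 1.02 (standard error 0.36, edgeR adjusted p = 0.121). DESeq2 called these 3 genes, with adjusted p-values of 0.00141 for Fabp5, 0.00497 for Slc27a1 and 0.0287 for Cd36. Gpihbp1, which carries lipoprotein lipase across capillary endothelium, had -0.66 (standard error 0.28, edgeR adjusted p = 0.177), opposite in sign to Lpl at 1.17. All 5 calls made in the 6 lists were lost when sgScramble tumor 1 or 5 or icOVA tumor 15 or 2 was left out, and those of Ppargc1a and Cebpd also without icOVA tumor 18. The edgeR adjusted p then reached 0.134 for Acsl1, 0.139 for Angptl4, 0.166 for Plin3 and Ppargc1a and 0.190 for Cebpd at most.

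By edgeR no gene was called among 10 tested adipokine receptors and other adipokines or among 6 tested other markers of mature adipocytes. Among the adipokines, DESeq2 called Rarres2 higher and Nrg4 lower. Their edgeR log2 fold changes were 0.65 (standard error 0.18, edgeR adjusted p = 0.0754) and -0.85 (standard error 0.28, edgeR adjusted p = 0.107). Of the 10 markers of mature adipocytes, Adig and Adrb3 had at most 5 counts and Mrap and Acvr1c at most 13 counts in any tumor, and these 4 were not tested, while Car3 had 126 to 421, Sncg 30 to 215 and Trarg1 36 to 232. Cavin1 was the most abundant of them, with a mean of 388 CPM. Cav1, the caveolin of adipocytes and endothelium, had a log2 fold change of 0.78 that did not pass (standard error 0.22, edgeR adjusted p = 0.0784), though it did by DESeq2 (adjusted p = 0.00745).

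The genes most like the mean of Adipoq, Plin1 and Cidec over the 7 tumors were sought among the tested genes with a mean of at least 50 counts, the members left out. The 10 with the highest Pearson's r were Gm12988 (r = 0.98), Gpihbp1 (0.95), Fbxl8 (0.95), Ednrb (0.94), Rdm1 (0.94), Cdkn2d (0.94), Cdc25b (0.94), Lysmd4 (0.93), Gm9762 (0.92) and Jade1 (0.91), a description over 7 tumors without a p-value. Gpihbp1 is the 1 gene among them that a list of adipocyte-related genes holds. It was 21.5, 13.6 and 21.6 CPM in the sgScramble tumors and 13.6, 6.76, 12.3 and 15.1 CPM in icOVA tumors 15, 16, 18 and 2, lowest in icOVA tumor 16. Because Cidec did not follow Adipoq, the ranking was repeated, after the data were seen, with Adipoq alone and with Adipoq, Plin1, Retn and Cfd. These shared 0 and 1 of 10 genes with the first ranking, and the highest were Trp53i11 (r = 0.98) and Kcnj2 (r = 0.99). Of the members, Cfd had an r of 0.98 with Adipoq, as well.

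The RefSeq promoters of the members (GRCm38.p6, windows of 300 bases around gene starts) were searched for letters that adipocyte factors are known to bind. The search was made because Adipoq, Cfd and Plin1 had r of 0.86 to 0.98 with one another. The r values of Plin1 were lower without the farthest tumors. Windows were found for 8 of the 10 members, 11 windows in all, and Fabp4 and Lpl had none in the table. The 8 patterns searched on both strands were chosen without regard to a fixed rule, and some contain others. TTNNNCAA, a broad form of the C/EBP site, was found in 6 member windows, those of Adipoq, Plin1, Retn, Lep, 1 of Cidec and 1 of Pparg, and in 36.7% of all 32851 windows. Its narrower forms TTGCNNAA and TTGCGCAA were in 4 and 1 member windows (10.8% and 0.183% of all windows). The nuclear receptor core AGGTCA was in 2 windows, both of Pparg (16.3% of all), and its repeat AGGTCANAGGTCA, the kind of site PPARγ binds with RXR, in 0 (0.0396%). CCCNNGGG, an EBF core, was in 4 member windows (13.7% of all), CCAAT in 4 (37.4%) and TATAAA in 1 (13.6%). The matches describe letters and not bound sites, and no match says only that the letters are not in the window. The promoters of Adipoq (chr16:23146286-23146585, plus strand), Plin1 (chr7:79732727-79733026, minus strand) and Cfd (chr10:79890603-79890902, plus strand), which moved together, are shown with that of the Cidec start at chr6:113434715-113435014 (minus strand), which did not move with them. Capitals mark matches to TTNNNCAA on either strand, of which the Cfd window has none.
Adipoq: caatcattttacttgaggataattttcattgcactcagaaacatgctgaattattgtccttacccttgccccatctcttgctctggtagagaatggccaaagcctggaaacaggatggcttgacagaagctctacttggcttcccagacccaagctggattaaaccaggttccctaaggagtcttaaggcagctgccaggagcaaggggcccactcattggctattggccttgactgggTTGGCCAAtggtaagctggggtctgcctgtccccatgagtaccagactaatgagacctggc
Plin1: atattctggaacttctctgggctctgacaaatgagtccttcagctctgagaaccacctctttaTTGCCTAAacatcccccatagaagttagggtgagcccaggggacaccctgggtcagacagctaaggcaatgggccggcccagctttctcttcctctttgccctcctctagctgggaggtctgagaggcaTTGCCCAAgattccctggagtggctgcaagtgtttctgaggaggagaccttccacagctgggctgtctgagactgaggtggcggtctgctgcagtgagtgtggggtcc
Cfd: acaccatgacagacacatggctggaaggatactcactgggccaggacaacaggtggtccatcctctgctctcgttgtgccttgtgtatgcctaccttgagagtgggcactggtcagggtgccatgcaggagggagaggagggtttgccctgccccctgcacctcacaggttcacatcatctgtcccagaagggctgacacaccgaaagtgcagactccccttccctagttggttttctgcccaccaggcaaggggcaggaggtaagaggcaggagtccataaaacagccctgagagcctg
Cidec: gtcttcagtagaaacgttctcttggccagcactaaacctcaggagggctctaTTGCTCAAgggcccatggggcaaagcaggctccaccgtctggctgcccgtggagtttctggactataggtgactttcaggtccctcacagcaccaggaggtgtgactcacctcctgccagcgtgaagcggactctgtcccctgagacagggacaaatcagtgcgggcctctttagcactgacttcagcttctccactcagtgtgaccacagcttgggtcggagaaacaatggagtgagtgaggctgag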

How the data were processed

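Per the study's methods, stranded total RNA libraries were sequenced as single reads, while the labels give polyA RNA as the molecule. The authors deposited raw counts per gene, whole numbers without normalization, and per the submitters' processing notes the genome was mm10. The aligner, the counter and its strand setting are not given in the sources used here. Of 22629 rows, 22414 identifiers had a symbol in GENCODE M21, which also gave coordinates (GRCm38) and exon lengths. In edgeR 4.0.16 (R 4.3.3), filterByExpr with a minimum count of 10 and a total of at least 15 chose the genes, TMM scaled the libraries, and the groups were compared by the quasi-likelihood test, two-sided, with Benjamini-Hochberg adjustment over all 17489 tested genes and a threshold of 0.05, after a check on simulated counts. In that check, with 200 changed genes among 17248, edgeR and limma-voom each called 172 changed and 7 unchanged genes. DESeq2 called 168 changed and 23 unchanged genes. Log2 CPM used a prior count of 2. List means are means of standardized log2 CPM of the tested genes, and correlations used all 5040 orders of the tumors. Alternatives were DESeq2 1.42.0, limma-voom (limma 3.58.1), other scalings, filters, prior counts and gene choices, a robust fit, and leaving out each tumor. The members and lists were chosen with earlier results of these data known. The text names the members, genes of the 17 lists, and the 10 genes most like Adipoq, Plin1 and Cidec. Hdgfl2, Trp53i11 and Kcnj2 lie outside this rule and were chosen after their values were seen.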

Additional observations from a re-analysis of the deposited data

Results flagged for a closer look

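Among the 4 icOVA tumors, the gap between the farthest tumor and its neighbor, as a share of the range of log2 CPM, was large for 4 of the 10 members. It was 0.940 for Adipoq and 0.959 for Cfd, where tumor 16 was lowest. For Cidec and Pparg it was 0.943 and 0.841, where tumor 18 was lowest. Chance alone gives about 0.5 such values among 10 independent genes, and members that move together are not independent. The share of all tested genes with such a gap was not computed. The count of 4 therefore says nothing particular of the members. The measure was not applied to the group of 3 sgScramble tumors.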

How the results depend on the processing

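No paired analysis was possible because the tumor numbers of the sgScramble and icOVA groups differ. DESeq2 called 1558 genes higher and 1278 lower, and 1 member in each direction (Fabp4 and Plin4), while the other settings with all tumors called no member. With each tumor left out in turn, the genes called ranged from 0 to 1014 (higher) and from 0 to 716 (lower), and the members called from 0 to 1 in each direction. The signs of small changes moved. With limma-voom the log2 fold change of Cfd was -0.30 and that of Pparg -0.034, and those of Adipoq and Retn were -0.83 and -0.74. With single tumors left out, the log2 fold change ranged from -0.36 to 0.30 for Adipoq, -0.65 to 0.37 for Plin1, -0.32 to 0.16 for Retn (4 of 7 cases, as it missed the filter in the others), -0.16 to 0.92 for Cfd and -0.17 to 0.28 for Pparg. Plin4 (-1.80 to -1.10), Cidec (-0.54 to -0.27), Fabp4 (0.84 to 1.45) and Lpl (0.88 to 1.45) kept their sign. The cause was not tested. Of 59 member values under the other settings with all tumors, 55 kept sign and side of the threshold, 2 newly passed it and 2 changed sign. The 55 include Retn with DESeq2, which had no adjusted p, so that only its sign could be kept. With a tumor left out, 44 of 60 member values kept both, 3 newly passed the threshold and 13 changed sign. For 19 other named genes, 0 values changed sign, but 11 of 133 with all tumors newly passed the threshold. With a tumor left out, 34 of 133 no longer passed it and 8 newly did. Ebf2, Rarres2 and Nrg4 were not among these genes. The 10 genes most like Adipoq, Plin1 and Cidec shared 4 genes with the ranking on all 10 members and 5 with that on deviations from the group means, and, in rankings chosen after seeing the data, 0 with Adipoq alone and 1 with Adipoq, Plin1, Retn and Cfd. Without Fabp4, Lpl, Pparg and Cfd the summed level of the members fell to 19.7 to 32.3 CPM in sgScramble tumors and 11.6 to 18.8 CPM in icOVA tumors, mostly Cidec and Plin4. A prior count of 0.5 moved 3 of 70 log2 CPM values by over 1 SD, all of Lep and Retn, which were at or near 0 counts in those tumors.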
